A study of Homo sapiens with 6 samples.

Results

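The pericentriolar scaffold and the centrosome linker were examined through 9 genes: PCNT, AKAP9, CDK5RAP2, PDE4DIP, CEP250, CROCC, CNTLN, CEP68 and NEK2. They were taken by gene name from a table of 58735 genes, and all 9 passed the filter on low counts, which left 16591 genes for testing. The samples were bulk RNA-seq libraries of RPE-1, an established line derived from human retinal pigment epithelium. In this line centrin (CETN2) carries a GFP tag and PLK4, the kinase that starts centriole duplication, is under an rtTA system that answers to doxycycline. PLK4 was induced with 1 µg/mL doxycycline in all 6 libraries, so the controls carry the induction too. Cells of 3 libraries received a SON siRNA (siSON) and cells of the other 3 a scramble siRNA (siControl). SON, a protein of nuclear speckles, acts in splicing, and the comparison asks how mRNA abundance differs when it is depleted. The labels do not say whether replicates came from separate cultures, so the p-values measure only the spread between these libraries, which may be technical.

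Pericentriolar material is a protein matrix that surrounds the centrioles and nucleates microtubules. Pericentrin (PCNT), AKAP9 and CDK5RAP2 are large coiled-coil proteins of this matrix that hold gamma-tubulin complexes, and AKAP9 and myomegalin (PDE4DIP), a paralog of CDK5RAP2, also act at the Golgi. The linker is a set of filaments between the parental centrioles that keeps both centrosomes together through interphase. CEP250 (C-Nap1) anchors it at the centriole end, CROCC (rootletin) forms the filaments, CEP68 and centlein (CNTLN) are bound to them, and the kinase NEK2 phosphorylates linker proteins so that the centrosomes separate when mitosis begins.

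Library totals ran from 54572365 to 69764836 counts, and 3 counts in a library correspond to 0.0430 to 0.0550 CPM (counts per 1e6 counts) before scaling; this floor covers counting error only. SON, the targeted gene, had 295.3, 312.7 and 283.9 CPM in siControl and 68.0, 70.0 and 65.0 CPM in siSON, a log2 fold change of -2.14 (SE 0.06, edgeR adjusted p 6.78e-10), and the induced PLK4 was lower in siSON by -0.36 (SE 0.11, adjusted p 0.0143). The epithelial and mesenchymal genes KRT8, KRT18 and VIM lay above 208 CPM in every library. Of the pigment epithelium genes, MITF lay between 21.4 and 32 CPM, OTX2 between 19.7 and 37.0 CPM and BEST1 between 7.71 and 14.8 CPM, whereas RPE65 and RLBP1 did not exceed 0.258 CPM and TYR had 0 counts in all 6. The markers of blood (PTPRC), endothelium (PECAM1) and other epithelia (CDH1, EPCAM) did not exceed 1.98 CPM in any library. Replicate 1 stood apart in both groups: chi-square per degree of freedom between replicates was 16.6 to 23.6 for pairs that included it and 6.68 for the other pair of each group.

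After SON depletion 8 of the 9 genes changed, 5 lower and 3 higher, by the quasi-likelihood test of edgeR with an adjusted p below 0.05. The background is high, since 71.7% of all genes tested were called by the same rule, 36.5% lower and 35.2% higher. Of the called genes 49.1% were higher, and 37.7% with library size alone in place of TMM factors. PCNT, CROCC, CEP250 and CNTLN fell more than 2-fold, which 20.5% of all genes tested did. No member rose 2-fold or more, against 8.72% of all genes tested. CEP68 fell by less, PDE4DIP, NEK2 and CDK5RAP2 rose, and AKAP9 was not called. The median log2 fold change of the 9 genes was -0.53, beside -0.03 over all genes tested. The groups of 3 libraries did not overlap for 8 of the 9, against 75.1% of all genes tested.

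**Figure D1:**
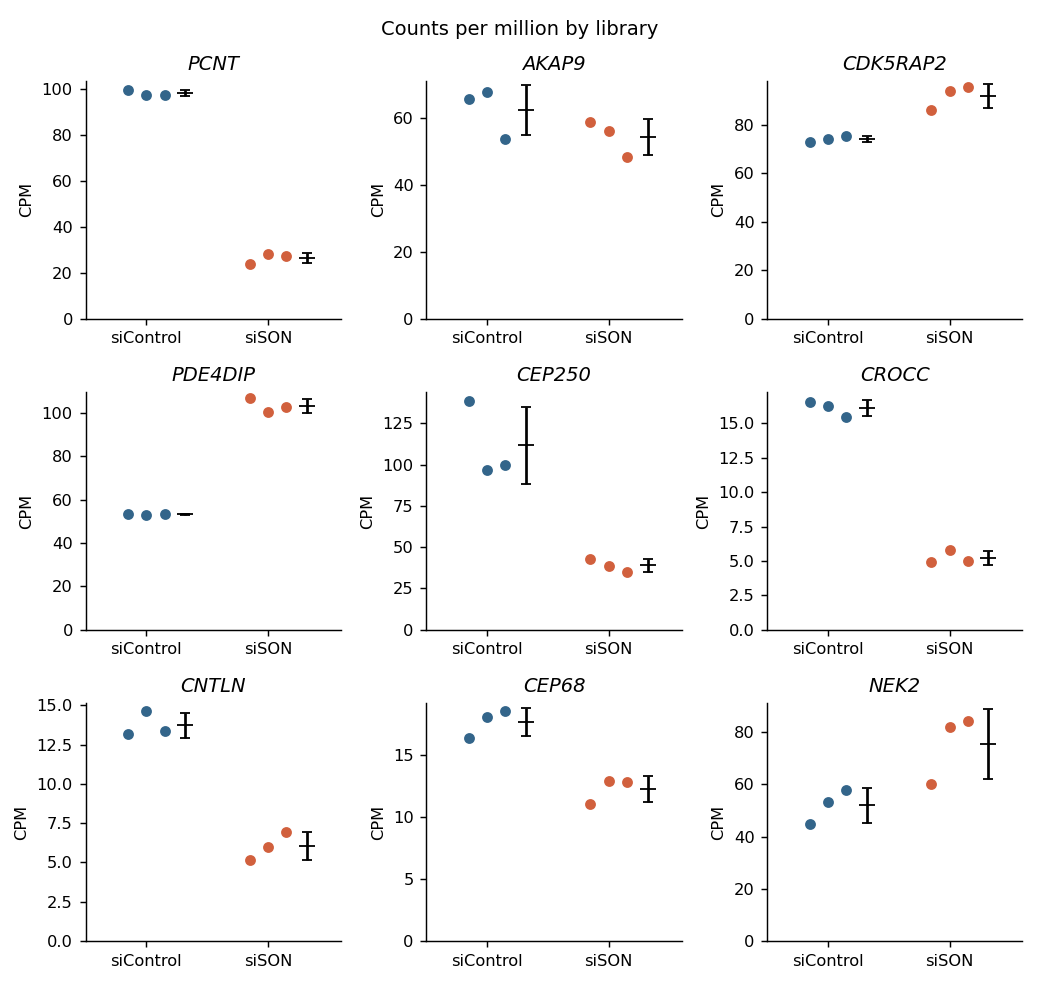
CPM (vertical axis, starting at 0) of the 9 genes in each library, with 3 siControl libraries in blue and 3 siSON libraries in orange, in the order of replicates 1 to 3; black marks give the mean and SD of each group. The groups are apart for every gene but AKAP9, and the siControl library of replicate 1 is high for CEP250 at 139 CPM.

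Among the scaffold genes, PCNT fell most. PCNT (ENSG00000160299) lies on the plus strand of chromosome 21, 46324122 to 46445769 (GRCh38, GENCODE release 29). It had 99.7, 97.3 and 97.7 CPM in replicates 1 to 3 of siControl and 23.8, 28.0 and 27.3 CPM in those of siSON. All siSON libraries were far below the lowest control, and 26.9% of the control level remained. The group means were 98.3 ± 1.31 and 26.4 ± 2.24 CPM (SD, n = 3 each), or -1.90 as a log2 fold change (SE 0.07, edgeR adjusted p 3.31e-09). PCNT overlaps 1 other annotated gene, the processed pseudogene RPL18AP2 on the other strand, which had 0 counts in all 6 libraries and shares no exonic base with it.

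AKAP9, which like PCNT ends in a centrosome-targeting domain, was the member that did not pass the test. AKAP9 (ENSG00000127914; chromosome 7, 91940867 to 92110673, plus strand) had 65.8, 67.7 and 53.7 CPM in siControl and 58.8, 56.0 and 48.2 CPM in siSON. The groups overlapped, because siControl replicate 3 lay below siSON replicates 1 and 2. The means were 62.4 ± 7.57 and 54.3 ± 5.49 CPM (SD, n = 3 each), or -0.20 as a log2 fold change (SE 0.10, edgeR adjusted p 0.0904). Without siControl replicate 3 the value was -0.30 and the call was made (adjusted p 0.0133). With library size alone it was -0.40 (adjusted p 0.00443) and with cyclic loess normalization -0.36 (limma adjusted p 0.00941), and the gene was also called with the replicate block (adjusted p 0.00473), with no filter on low counts (0.0170) and with a mean count of at least 50 (0.0453). The call of AKAP9 thus depends on the scaling, the filter, the block and 1 library.

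PCNT and AKAP9 changed places in the order of counts. The log2 ratio of PCNT to AKAP9 counts within a library, which does not depend on how libraries are scaled, was 0.60, 0.52 and 0.86 in siControl and -1.30, -1.0 and -0.82 in siSON. PCNT had the larger count of the pair in every control library and the smaller in every siSON library. The ratio differed by -1.70 between groups (2-sided exact permutation test over libraries, p = 0.1, the smallest that 3 against 3 can give; 0.15 adjusted over the 3 pairs of members compared).

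CDK5RAP2 (ENSG00000136861; chromosome 9, 120388869 to 120580170, minus strand), which activates gamma-tubulin complexes, had 72.8, 74.1 and 75.6 CPM in siControl and 86.2, 93.8 and 95.6 CPM in siSON. Every siSON library was above every control. The means were 74.2 ± 1.37 and 91.9 ± 4.99 CPM (SD, n = 3 each), or 0.31 as a log2 fold change (SE 0.06, edgeR adjusted p 0.000549). The size and the call of this gene depended on the scaling: with library size alone the log2 fold change was 0.11 (adjusted p 0.120) and with cyclic loess normalization 0.09 (limma adjusted p 0.152). Library size alone moved the median of all genes to -0.22, and relative to that median CDK5RAP2 stood at 0.33, but relative to the median under cyclic loess it stood at 0.05.

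PDE4DIP rose nearly 2-fold. PDE4DIP (ENSG00000178104; chromosome 1, 148808181 to 149048286, plus strand) had 53.2, 53.0 and 53.3 CPM in siControl and 107, 100.3 and 103 CPM in siSON. The 3 controls were almost equal, and all siSON libraries lay well above them. The means were 53.2 ± 0.16 and 103 ± 3.27 CPM (SD, n = 3 each), 1.94 times the control level, with a log2 fold change of 0.96 (SE 0.05, edgeR adjusted p 3.98e-08). With library size alone or with cyclic loess normalization the log2 fold change was 0.76.

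The count of PDE4DIP is uncertain because the gene has near copies. Of the 50-base words of its transcript with the longest coding sequence, 60.9% also occur in transcripts of AC241952.1, a transcribed pseudogene on the minus strand of chromosome 1 (120489860 to 120701289), and 66.0% occur in some other gene. How reads that fit both were counted is not given in the sources used here. AC241952.1 had 7.29, 5.88 and 4.23 CPM in siControl and 9.18, 8.78 and 7.06 CPM in siSON, far below PDE4DIP in every library. The difference was 0.53 on the log2 scale (SE 0.18, edgeR adjusted p 0.0234), with overlapping groups. The call was lost with library size alone (0.33, adjusted p 0.128) and without siControl replicate 2 or 3 or siSON replicate 1 or 2, where the log2 fold change ran from 0.33 to 0.52.

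The paralogs CDK5RAP2 and PDE4DIP both rose with the main scaling, and PDE4DIP by more. The log2 ratio of CDK5RAP2 to PDE4DIP counts was 0.45, 0.48 and 0.50 in siControl and -0.31, -0.10 and -0.10 in siSON. CDK5RAP2 had more counts than PDE4DIP in all controls and fewer in all siSON libraries. The ratio differed by -0.65 between groups (2-sided exact permutation test, p = 0.1, the smallest possible; 0.15 adjusted over 3 pairs).

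The core linker genes CEP250, CROCC and CNTLN all fell more than 2-fold. CEP250 (ENSG00000126001; chromosome 20, 35455164 to 35519280, plus strand) had 139, 96.8 and 99.5 CPM in siControl and 43.1, 38.9 and 35.3 CPM in siSON. Replicate 1 was high in siControl, and the lowest control was still far above the highest siSON library. The means were 112 ± 23.4 and 39.1 ± 3.94 CPM (SD, n = 3 each), or -1.51 as a log2 fold change (SE 0.14, edgeR adjusted p 8.25e-06). Leaving out each library in turn gave log2 fold changes from -1.62 to -1.35 with adjusted p-values of at most 0.000696.

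CROCC encodes rootletin, the protein of the linker filaments and of the ciliary rootlet. CROCC (ENSG00000058453; chromosome 1, 16740273 to 16972979, plus strand) had 16.6, 16.3 and 15.5 CPM in siControl and 4.91, 5.78 and 4.98 CPM in siSON. The siSON libraries lay close together, at 32.4% of the control mean. The means were 16.1 ± 0.572 and 5.22 ± 0.483 CPM (SD, n = 3 each), or -1.62 as a log2 fold change (SE 0.10, edgeR adjusted p 7.66e-08).

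Pseudogene copies of CROCC on chromosome 1 went in both directions. CROCCP2 (ENSG00000215908; 16618253 to 16657232, minus strand) rose from 15.7, 13.9 and 13.1 CPM to 36.9, 36.2 and 32.5 CPM, a log2 fold change of 1.31 (SE 0.09, edgeR adjusted p 1.80e-07). CROCCP3 (ENSG00000080947; 16467436 to 16499257, minus strand) fell from 4.64, 4.2 and 2.78 CPM to 1.29, 1.09 and 0.826 CPM, a log2 fold change of -1.85 (SE 0.24, edgeR adjusted p 2.88e-05). CROCC and CROCCP2 thus had similar CPM in the controls, whereas CROCCP2 was above CROCC in every siSON library. These directions held with library size alone (-1.82 for CROCC, 1.11 for CROCCP2) and with cyclic loess normalization (-1.40 and 1.34).

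The transcripts of CROCC and CROCCP2 are alike but can be told apart over most of their length. Their best local alignment paired 2722 bases with 147 substitutions, an identity of 94.6%. This alignment spans bases 421 to 3390 of the 6656 bases of the CROCC transcript. Of the 50-base words of the whole CROCC transcript, 5.25% occur in CROCCP2, 4.21% in CROCCP3 and 9.25% in some other gene. The share within the aligned stretch alone was not computed. The ungapped coding stretch with the most substitutions is shown because it displays how reads of the falling gene and the rising copy differ. It covers 90 bases with 12 substitutions, in exon 17 of CROCC (chr1:16946768-16946857, plus strand) and in exon 13 of CROCCP2 (chr1:16625909-16625998, minus strand), both in GRCh38 as given by the GENCODE release 29 transcripts. Both are written 5′ to 3′, and capitals mark the bases that differ.
CROCC: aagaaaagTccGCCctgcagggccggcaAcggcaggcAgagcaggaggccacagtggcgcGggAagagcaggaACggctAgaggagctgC
CROCCP2: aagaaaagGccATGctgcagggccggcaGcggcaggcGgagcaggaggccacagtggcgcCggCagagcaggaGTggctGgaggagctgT

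**Figure D2:**
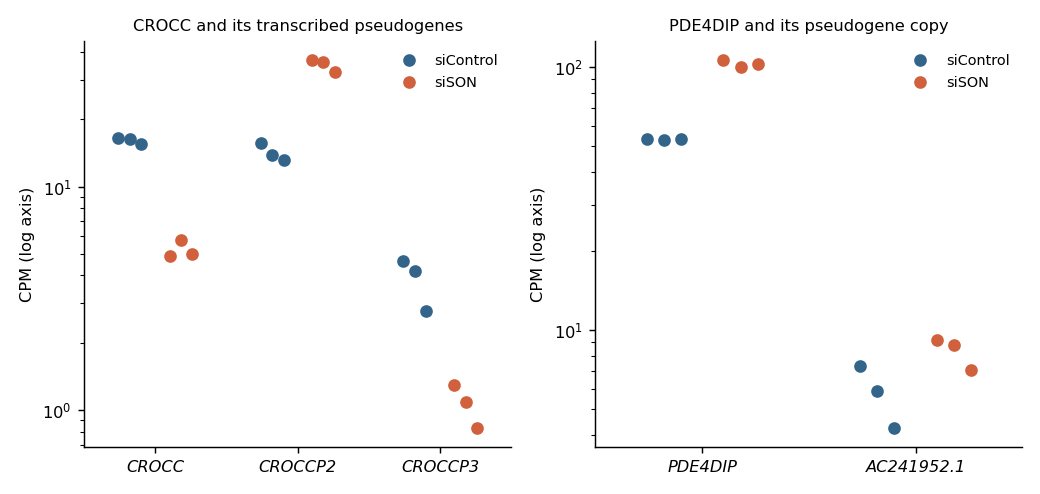
CPM on a log axis for CROCC with the pseudogenes CROCCP2 and CROCCP3 (left) and for PDE4DIP with the pseudogene AC241952.1 (right), each point 1 library, blue for siControl and orange for siSON. CROCC and CROCCP3 are lower in siSON and CROCCP2 is higher, while AC241952.1 lies below 10 CPM in every library.

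CEP250 and CROCC, which bind each other in the linker, fell by similar amounts. The log2 ratio of CEP250 to CROCC counts was 3.07, 2.57 and 2.69 in siControl and 3.13, 2.75 and 2.82 in siSON. The groups overlapped, and the difference of 0.13 was smaller than the SD within siControl, which was 0.26 (2-sided exact permutation test, p = 0.5, and 0.5 adjusted over 3 pairs). With 3 libraries a group this does not show that both changed equally, and the difference ranged from 0.01 to 0.27 when each library was left out in turn.

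CNTLN, whose product centlein is bound to CEP250 and CEP68, is the longest gene of the group. CNTLN (ENSG00000044459; chromosome 9, 17134982 to 17503923, plus strand) had 13.2, 14.7 and 13.4 CPM in siControl and 5.15, 5.99 and 6.92 CPM in siSON. No siSON library came near the controls. The means were 13.7 ± 0.80 and 6.02 ± 0.887 CPM (SD, n = 3 each), or -1.19 as a log2 fold change (SE 0.12, edgeR adjusted p 3.43e-06). With cyclic loess normalization the log2 fold change was -0.97.

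CEP68, a linker protein that is degraded in mitosis, fell less than the other linker genes. CEP68 (ENSG00000011523; chromosome 2, 65056366 to 65087004, plus strand) had 16.3, 18 and 18.5 CPM in siControl and 11.0, 12.9 and 12.8 CPM in siSON. The groups did not overlap, and 69.5% of the control level remained. The means were 17.6 ± 1.13 and 12.2 ± 1.06 CPM (SD, n = 3 each), or -0.53 as a log2 fold change (SE 0.09, edgeR adjusted p 0.000373). The 3′ part of CEP68 overlaps RAB1A on the other strand over 757 exonic bases, 8.78% of the exonic bases of CEP68. RAB1A, a GTPase of transport from the endoplasmic reticulum to the Golgi, rose from 91.5 ± 5.46 to 278 ± 8.78 CPM (SD, n = 3 each), and without a stated strand setting reads of the shared stretch cannot be told apart.

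NEK2, the kinase that opens the linker, rose. NEK2 (ENSG00000117650; chromosome 1, 211658657 to 211675630, minus strand) had 44.7, 53.4 and 57.8 CPM in siControl and 60.1, 82.1 and 84.3 CPM in siSON. Replicate 1 was the lowest library of both groups, and siSON replicate 1 was only just above the highest control. The means were 51.9 ± 6.67 and 75.5 ± 13.4 CPM (SD, n = 3 each), 1.45 times the control level, with a log2 fold change of 0.54 (SE 0.13, edgeR adjusted p 0.00498). Without replicate 1 of both groups, an alternative chosen after the data were seen, it was 0.56 (adjusted p 1.01e-07). It was 0.34 (adjusted p 0.0392) with library size alone and 0.36 (limma adjusted p 0.0244) with cyclic loess normalization. In bulk libraries a larger share of cells in G2 and mitosis and more NEK2 mRNA per cell cannot be told apart.

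Because NEK2 is made mainly in G2 and mitosis, 12 other genes of that part of the cell cycle were read beside it. Of these, 7 were called changed, 3 higher and 4 lower, which is 58.3% against 71.7% of all genes tested, and their median log2 fold change was -0.12. BUB1, a kinase of the spindle checkpoint, rose from 108.5 ± 10.1 to 181 ± 26.5 CPM (SD, n = 3 each; on the log2 scale 0.74, edgeR adjusted p 0.000113). CENPF, a kinetochore protein, had a log2 fold change of 0.29 (adjusted p 0.00403) and cyclin B1 (CCNB1) one of 0.18 (adjusted p 0.0448), but with cyclic loess normalization these were -0.07 and -0.04 and neither was called. With library size alone both calls were lost too (0.10 for CENPF, adjusted p 0.263, and -0.02 for CCNB1), and the CCNB1 call was lost when any of 5 of the 6 libraries was left out. KIF20A, a kinesin of the central spindle, fell by 1.01 on the log2 scale (adjusted p 2.60e-05), and CCNB2 and CDK1 fell by 0.75 and 0.72 (adjusted p 0.000281 and 0.00453).

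The summed level of the 12 genes was 2253, 2433 and 2420 CPM in siControl and 1772, 2268 and 2365 CPM in siSON. Replicate 1 was the lowest library for 11 of the 12 genes in siControl and for all 12 in siSON, as it was for NEK2. The most abundant genes weigh most in this sum, namely MKI67, TOP2A and CENPF with siControl means of 582, 578 and 318 CPM. The sum was lower in every siSON library than in siControl replicates 2 and 3. In siSON replicate 1 it was below all controls. NEK2 was above all controls in every siSON library. The part of cell cycle differences in the NEK2 value was not tested.

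**Figure D3:**
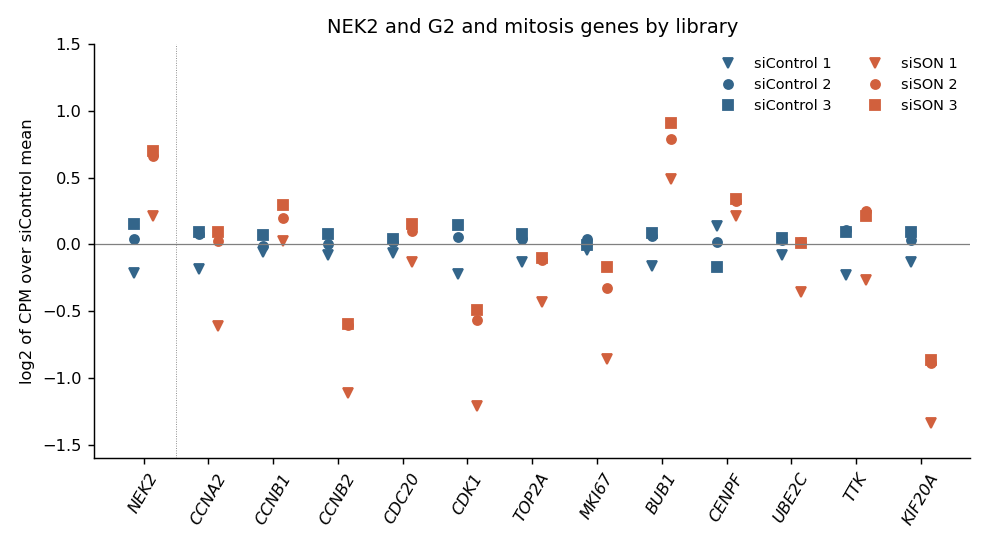
Log2 of CPM over the siControl mean of each gene (vertical axis) for NEK2, left of the dotted line, and 12 genes of G2 and mitosis; symbols give the replicate, blue the siControl and orange the siSON libraries. The downward triangles of siSON replicate 1 are the lowest siSON values for all 13 genes, and NEK2, CCNB1, BUB1 and CENPF lie above 0 in all siSON libraries.

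Promoter sequence was read for the members from RefSeq (GRCh38.p14), where 8 of the 9 had an entry and CEP250 had none. The 250 bases before each annotated start were searched for CCAAT on either strand, the core of the box bound by NF-Y and common in genes of G2 and mitosis. Over all 27305 genes with such a window, 37.0% held at least 1 match and 11.5% held 2 or more. Of the members 4 held at least 1, namely PCNT, PDE4DIP, CEP68 and NEK2, and PCNT and NEK2 held 2 or more. A gene with several annotated starts was counted by its window with the most matches, so more starts gave more chances. PDE4DIP held a match in only 1 of its windows, and PCNT has another window, not shown, with 1 match. Of 10 of the G2 and mitosis genes with an entry, 9 held 2 or more. A match describes the sequence and is not evidence that a factor binds. The windows of NEK2 (chr1:211675622-211675871, minus strand, 2 matches) and PCNT (chr21:46323906-46324155, plus strand, 3 matches) are shown because both genes hold more than 1 match while their mRNAs moved in opposite directions. They are written 5′ to 3′ with the matches in capitals.
NEK2: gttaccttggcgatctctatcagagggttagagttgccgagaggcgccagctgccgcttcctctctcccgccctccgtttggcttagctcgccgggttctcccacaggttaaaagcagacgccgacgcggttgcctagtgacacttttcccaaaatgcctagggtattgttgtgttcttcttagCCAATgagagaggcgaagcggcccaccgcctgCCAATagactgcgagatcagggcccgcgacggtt
PCNT: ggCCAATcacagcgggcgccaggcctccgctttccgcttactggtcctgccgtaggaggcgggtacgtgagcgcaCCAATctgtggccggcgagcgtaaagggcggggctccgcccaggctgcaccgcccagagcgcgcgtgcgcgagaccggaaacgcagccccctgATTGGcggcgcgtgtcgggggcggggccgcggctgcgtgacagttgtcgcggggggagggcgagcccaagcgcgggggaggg

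Levels of different genes were compared per kilobase of the transcript with the longest coding sequence. In siControl, NEK2 was highest at 24.4 ± 3.13 CPM per kilobase (SD, n = 3), followed by CDK5RAP2 (11.9 ± 0.22), PCNT (9.30 ± 0.124), CEP250 (7.11 ± 1.49), PDE4DIP (6.30 ± 0.019), AKAP9 (5.09 ± 0.618), CEP68 (3.01 ± 0.193), CNTLN (2.46 ± 0.143) and CROCC (2.42 ± 0.0859), all in CPM per kilobase. Of the neighbours in this order, CEP250 and PDE4DIP did not differ beyond their spread, nor did CNTLN and CROCC. In siSON the order was NEK2 (35.4 ± 6.29), CDK5RAP2 (14.8 ± 0.801), PDE4DIP (12.2 ± 0.387), AKAP9 (4.44 ± 0.448), PCNT (2.5 ± 0.212), CEP250 (2.49 ± 0.251), CEP68 (2.09 ± 0.181), CNTLN (1.08 ± 0.159) and CROCC (0.785 ± 0.0726) in the same unit. PCNT thus moved from above AKAP9 to below it, and there PCNT and CEP250 did not differ beyond their spread. The mean ± SD ranges of CEP250 and CEP68 overlapped in siSON as well. Several places in these orders depend on the length used. For PDE4DIP, over all its annotated exons, 27623 bases in 50 transcripts, its level was 1.92 CPM per kilobase in siControl and 3.74 in siSON. By the same measure PCNT (8.43) was above CDK5RAP2 (7.36) and CROCC (1.82) above CNTLN (1.24) in siControl, and CEP250 (2.40) was above PCNT (2.26) and CROCC (0.589) above CNTLN (0.544) in siSON.

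The genes that fell more than 2-fold have many exons. So do AKAP9, which was not called, and PDE4DIP and CDK5RAP2, which rose with the main scaling. Whether exon number bears on the changes was not tested. The transcripts described have 47 exons in PCNT, 37 in CROCC, 35 in CEP250 and 26 in CNTLN. AKAP9 has 50, PDE4DIP 47 and CDK5RAP2 38. The median was 9 over the 12699 protein-coding genes tested that have introns, and the medians below are over the same genes. CEP68 has 7 exons and NEK2 has 8. GC content was 67.0% in CROCC, 56.0% in PCNT and 53.7% in CEP250, but 39.3% in CNTLN, beside a median of 49.2%. AKAP9 had 37.6%, CDK5RAP2 48.5% and PDE4DIP 51.5%. Introns under 500 bases made up 38.9% of the introns of CROCC, 23.5% in CEP250, 15.2% in PCNT and 4.0% in CNTLN, beside a median of 14.3%. The share was 15.2% in PDE4DIP, 10.2% in AKAP9 and 2.7% in CDK5RAP2, and CEP68 and NEK2 had no such intron. CNTLN, with a median intron of 8096 bases and low GC content, differed in both from the 3 other genes that fell more than 2-fold.

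**Figure D4:**
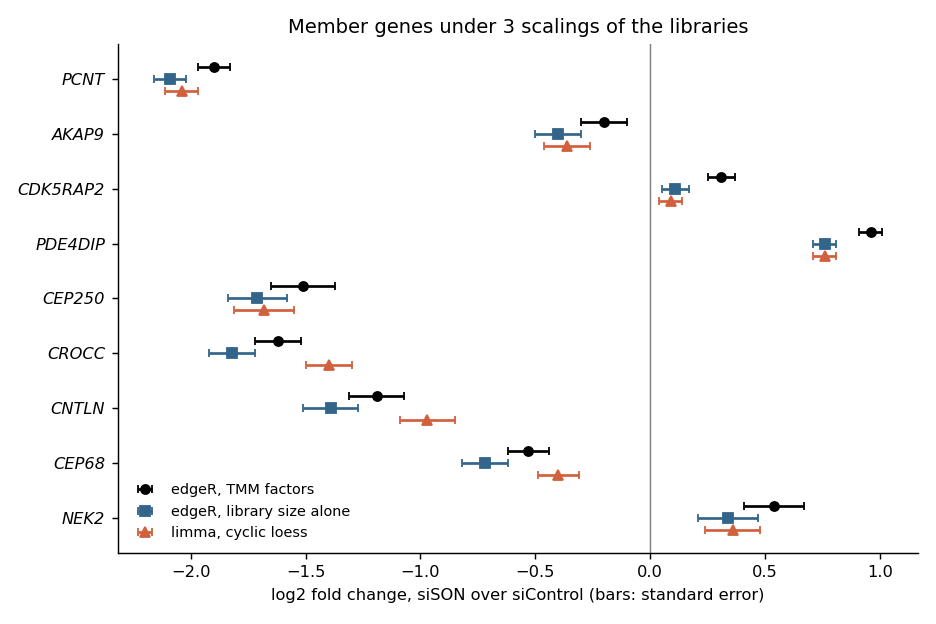
Log2 fold change of siSON over siControl (horizontal axis, bars give the standard error) for the 9 genes with TMM factors (black circles), library size alone (blue squares) and cyclic loess normalization (orange triangles). All 9 keep their side of 0, and CDK5RAP2 moves from 0.31 to 0.11 and 0.09.

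Other genes of the scaffold and the linker were read from 3 lists. Of 18 genes that bind or act on the scaffold, 16 were called, 4 higher and 12 lower, which is 88.9% against 71.7% of all genes tested, with a median log2 fold change of -0.34. TUBG1, the gamma-tubulin itself, fell from 124 ± 7.85 to 9.82 ± 1.17 CPM (SD, n = 3 each), and the gamma-tubulin complex subunits TUBGCP2 and TUBGCP6 fell by 1.80 and 1.90 on the log2 scale (edgeR adjusted p 1.99e-09 and 1.45e-08). CEP192, which recruits the scaffold for mitosis, fell from 49.6 ± 3.76 to 22.4 ± 2.83 CPM (SD, n = 3 each; chosen after its values were seen). TUBGCP3, another subunit of the complex, rose by 0.64, CEP63 by 0.43 and the mitotic kinase PLK1 by 0.57 on the log2 scale (adjusted p 2.97e-05, 0.000267 and 0.000771).

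Of 10 genes whose products AKAP9, pericentrin or myomegalin anchor or work with, 8 were called, 4 higher and 4 lower, which is 80.0% against 71.7% of all genes tested, and the median log2 fold change was -0.03. PRKACA, the catalytic alpha subunit of protein kinase A, fell from 137 ± 9.22 to 53.3 ± 4.95 CPM (SD, n = 3 each; on the log2 scale -1.37, edgeR adjusted p 4.88e-08), whereas PRKACB, the beta subunit, rose by 0.51 (adjusted p 0.000378). The type II regulatory subunits, which anchoring proteins bind, went in opposite directions. PRKAR2A rose by 0.73 (edgeR adjusted p 5.53e-06), and PRKAR2B fell from 16.8 ± 1.46 to 10.4 ± 1.15 CPM (SD, n = 3 each; on the log2 scale -0.70, edgeR adjusted p 0.000106). CAMSAP2, which binds microtubule minus ends, rose by 0.46 (adjusted p 4.55e-05), and the Golgi matrix gene GOLGA2 and the microtubule-binding gene CLASP2 fell by 0.60 and 0.80 (adjusted p 8.23e-06 and 1.31e-06). MAPRE1, the plus-end protein EB1, had 190.5 ± 9.54 CPM in siControl and 188 ± 14.1 CPM in siSON (SD, n = 3 each; chosen after its values were seen).

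Of 14 linker partners and regulators, 8 were called, 4 higher and 4 lower, which is 57.1% against 71.7% of all genes tested, and the median log2 fold change was -0.06. LRRC45, a further linker component, had 20.4 ± 0.813 CPM in siControl and 2.85 ± 0.339 CPM in siSON (SD, n = 3 each; on the log2 scale -2.83, edgeR adjusted p 3.78e-09). KIFC3, a minus-end kinesin, fell by 1.44 (adjusted p 7.15e-08) and STK3, a kinase upstream of NEK2, by 0.35 (adjusted p 0.00306). BTRC, the substrate-binding subunit of a ubiquitin ligase that targets CEP68, rose from 31.6 ± 2.41 to 84.5 ± 2.86 CPM (SD, n = 3 each; on the log2 scale 1.42, adjusted p 1.64e-08). CTNNB1 (beta-catenin) rose by 0.59 and CEP85, a binding partner of NEK2, by 0.74 (adjusted p 7.36e-07 and 0.000144), and with cyclic loess normalization the CTNNB1 value was 0.20 (limma adjusted p 0.00184). CCDC102B, low in all libraries and named after its values were seen, rose from 1.12 ± 0.189 to 1.83 ± 0.0882 CPM (SD, n = 3 each). Its log2 fold change was 0.71 (edgeR adjusted p 0.00751). Not called were CEP135, SAV1, PPP1CA, PPP1CC, KIF11 and CDC14A, with log2 fold changes from -0.12 to 0.11.

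**Figure D5:**
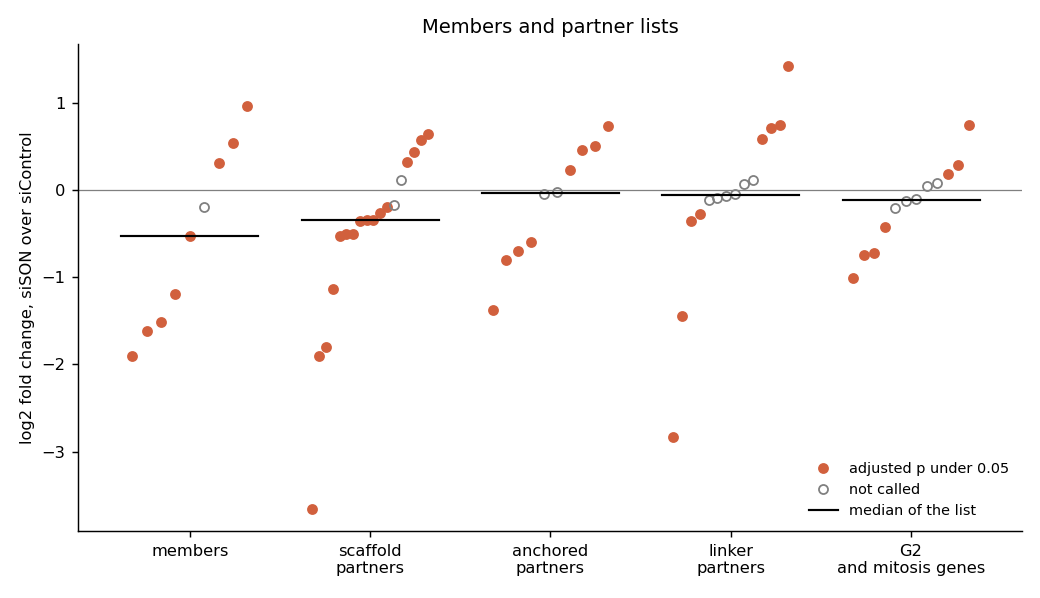
Log2 fold change of siSON over siControl (vertical axis) for each gene of the 9 members, 18 scaffold partners, 10 anchored partners, 14 linker partners and 12 genes of G2 and mitosis, sorted within a list; filled points have an adjusted p under 0.05 and bars are list medians. The medians are -0.53, -0.34, -0.03, -0.06 and -0.12 in that order.

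The genes with the profile most like the extremes of the group were sought over all genes tested, by the Euclidean distance over the 6 libraries of log2 CPM centred on the siControl mean. Nearest to PCNT were CERCAM (distance 0.0865), TWF2 (0.112) and RAD51B (0.115), against a median distance of 3.31. CERCAM went from 75.8 ± 0.767 to 20.5 ± 2.37 CPM (SD, n = 3 each). Among the genes nearest to PDE4DIP were PSMD12 (distance 0.0183) and TJP1 (0.0423), against a median distance of 1.85. With 6 libraries in 2 groups such distances reflect mainly the size of the group difference.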

How the data were processed

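Bulk RNA-seq of RPE-1 cells was measured in 3 siControl and 3 siSON libraries. The authors deposited raw read counts per gene, and the submitters' processing notes list cutadapt 1.16, STAR 2.5.2a, featureCounts 1.6.2, DESeq2 1.28.1 and build hg38. Whether strand was used and how multiply mapped reads were counted is not given in the sources used here, so counts of overlapping genes and near copies are uncertain. Counts per gene do not show splicing.

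Genes were kept with filterByExpr of edgeR 4.0.16 (minimum count 10, R 4.3.3), scaled with TMM factors and tested with the robust quasi-likelihood test over all 6 libraries. P-values were adjusted by Benjamini-Hochberg over 16591 genes with a threshold of 0.05. CPM use TMM-scaled library sizes, and standard errors were computed from the log2 fold change and the F statistic, as its size over the root of F. Log2 ratios of members add 0.5 to each count. The script was tested on simulated data. GENCODE release 29 (GRCh38) held all 58735 identifiers, and each gene is described by its protein-coding transcript with the longest coding sequence. From each list the text names up to 3 called genes per direction with the smallest adjusted p, beside the members, SON, PLK4, CETN2, overlapping genes, near copies and the 3 genes most like PCNT and PDE4DIP, of which 1 is not reported here; other names, among them the cell markers, genes of a list that were not called and PRKAR2B, were given outside this rule. The members and lists were chosen with earlier results of these data known. Alternatives were other scalings (RLE, library size alone, cyclic loess with limma 3.58.1), other filters, limma-voom, DESeq2 1.42.0, the replicate block and leaving out libraries.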

Additional observations from a re-analysis of the deposited data

How the results depend on the processing

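All 9 members kept their direction under each of the 15 alternatives run, and 127 of their 135 alternative values kept their side of the threshold. AKAP9 was called with library size alone (-0.40), no filter (-0.19), a mean count of at least 50 (-0.26), cyclic loess (-0.36) and the replicate block (-0.20), and leaving out 1 library gave -0.30 to -0.11. CDK5RAP2 was not called with library size alone (0.11) or cyclic loess (0.09). In the main fit CETN2 was higher in siSON by 0.38 (edgeR adjusted p 5.89e-05) and CLASP1 by 0.23 (edgeR adjusted p 0.0023). Cyclic loess turned CETN2 (-0.03), CENPF (-0.07), CLASP1 (-0.01, named after its values were seen) and CCNB1 (-0.04). Library size alone turned CCNB1 (-0.02). The cause was not tested. Leaving out 1 library gave 11153 to 11783 changed genes and 8 to 9 called members. The same-numbered libraries correlated at 0.194, 0.0461 and 0.118 in their deviations from the group means. Libraries of unlike number correlated at -0.138 to 0.0286, below each of these values. Deviations from a group mean cancel within the group, so these lower values are not separate evidence of pairing. What the numbers stand for is not stated, and the main test did not use them as pairs. With the replicate block 12313 genes and 9 members were called. With 3 libraries a group an exact permutation test cannot go below 0.1.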
